A study of Mus musculus with 6 samples.

Results

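The genes described here encode cytosolic heat shock chaperones and their partners, and their transcripts were measured in KPC1199 mouse pancreatic tumour cells with and without knockdown of ACSL5. There are 10 of them among the 57508 genes of the deposited tables, picked by symbol as inducible chaperones of the heat shock factor HSF1 and their constitutive relatives. They are the HSP70 genes Hspa1a, Hspa1b and Hspa8, the HSP110 genes Hspa4, Hspa4l and Hsph1, the J-domain gene Dnajb1, the BAG-domain gene Bag3, the small heat shock protein gene Hspb1 and the HSP90 gene Hsp90aa1. They were picked with earlier results of the same comparison known, so their differences between the groups are a description, and no test is read from them.

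RNA was sequenced from 3 libraries with the genotype WT, named siACSL5_CY3, and 3 with the genotype ACSL5 knockdown, named siACSL5_2260. The titles of the latter call them KO where the genotype field says knockdown. The labels explain neither ending of these names, nor say whether the libraries of a group came from separate cultures, so p-values measure the spread between libraries, which may be technical. All libraries come from 1 cell line, and the sources used here give no time from treatment to harvest. The series design asks what ACSL5, a long-chain acyl-CoA synthetase, does in pancreatic ductal adenocarcinoma.

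Chaperones of the HSP70 family bind exposed hydrophobic stretches of unfolded proteins and release them in a cycle driven by ATP. J-domain proteins such as DNAJB1 bring substrates and start ATP hydrolysis, while HSP110 and BAG proteins exchange the spent nucleotide. When unfolded protein accumulates, HSF1 is freed from chaperones, forms trimers and binds heat shock elements, which are inverted repeats of the bases GAA and TTC, before genes such as Hspa1a and Hspa1b. Cells of many tumours carry a raised demand for these chaperones even without heat.

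Library totals lay between 21794244 and 29996194 expected counts. The targeted gene Acsl5 had 342.4, 265.2 and 270.2 CPM (counts scaled to library size with TMM factors) in WT against 49.8, 55.6 and 57.2 CPM in knockdown libraries, replicates 1 to 3 in order here and below. All 8 ductal tumour markers checked averaged at least 1 TPM (transcript abundance scaled to gene length and library), and the summed level of these markers was 8106 to 9369 TPM per library. Summed markers of other cell types were far lower. The 7 fibroblast markers, most of it Col3a1, summed to 42.3 to 101.9 TPM in WT and 75.6 to 84.3 TPM in knockdown libraries, with Lum at 0. Col3a1 alone was at 34.35 to 70.62 TPM, above the ductal marker Epcam (30.84 to 38.76 TPM) in each library. The 6 leukocyte markers, nearly all of it Cd68, summed to 3.55 to 6.53 and 7.19 to 8.49 TPM, with Cd3e and Adgre1 at 0. The 5 acinar markers, nearly all of it Cela1, summed to 6.23 to 9.88 and 12.5 to 14.7 TPM, with Prss1 and Ptf1a at 0, and the 3 endothelial markers to at most 0.12 TPM, with Cdh5 at 0. The part of these markers in the results was not tested, and in bulk RNA fewer cells of a type cannot be told apart from less RNA per cell. WT replicate 1 stood apart, with Pearson's r of log2(CPM + 1) across genes at 0.920 to 0.935 against the other libraries, which reached at least 0.981 among themselves. Fold changes of the 10 genes are therefore given over the 6 libraries and over the 5 without WT replicate 1, and those of other genes over 5 unless 6 is stated, as log2 of knockdown over WT with the standard error (SE) of the edgeR fit.

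The promoters of the inducible pair come first, because the transcripts with the largest differences come from this pair and the element that HSF1 binds can be read in them. Hspa1a and Hspa1b each have 1 exon and lie next to each other on the minus strand of chromosome 17 of GRCm38, Hspa1a from 34969190 to 34972156 and Hspa1b from 34956436 to 34959238. RefSeq windows of GRCm38.p6, from 250 bases before to 50 bases after the gene start, were matched for 8 of the 10 genes, not for Hspa8 and Hsp90aa1. The windows of Hspa1a and Hspa1b differ in 4 of 300 bases. The first sequence gives the 250 bases before the start of Hspa1b (chr17:34959239-34959488, minus strand) and the second gives 60 bases of Hspa1a (chr17:34972227-34972286, minus strand), with matches to GAANNTTC or TTCNNGAA in capitals. Further lines show the matches of Hspb1 (chr5:135887776-135887835, plus strand), Hsph1 (chr5:149636351-149636380, minus strand) and Bag3 (chr7:128523603-128523632, plus strand).
Hspa1b: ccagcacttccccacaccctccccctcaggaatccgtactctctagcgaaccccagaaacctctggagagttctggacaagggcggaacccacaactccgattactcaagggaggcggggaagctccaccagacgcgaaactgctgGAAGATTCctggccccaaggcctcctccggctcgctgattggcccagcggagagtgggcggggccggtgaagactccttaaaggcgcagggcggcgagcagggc
Hspa1a: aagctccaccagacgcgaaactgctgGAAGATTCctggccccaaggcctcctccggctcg
Hspb1: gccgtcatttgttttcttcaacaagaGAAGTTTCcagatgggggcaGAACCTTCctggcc
Hsph1: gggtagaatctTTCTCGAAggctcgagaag
Bag3: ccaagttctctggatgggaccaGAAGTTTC

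Both inducible HSP70 genes carry the letters GAAGATTC, whose first base is the 104th before the gene start. Each of the motifs GAANNTTC and TTCNNGAA reads the same on both strands. GAANNTTC occurs in 7.86% and TTCNNGAA in 8.52% of 32851 promoter windows of the same length, and either in 15.1%. Of the 8 genes with a window, 5 hold at least one of them, namely Hspa1a, Hspa1b, Hsph1, Hspb1 and Bag3, while neither was found in the windows of Hspa4, Hspa4l and Dnajb1. Counted by gene, 17% of 27025 genes with a window hold at least one of the motifs. In Bag3 the match ends at base 50 after the RefSeq start. Hsph1 also holds overlapping matches after its start that form 3 alternating GAA and TTC units in a row, searched on both strands, an arrangement found in 0.603% of all windows. Among these windows the letters GAAGATTC were matched only in Hspa1a and Hspa1b, while Hspb1, Hsph1 and Bag3 hold other letters of the pattern GAANNTTC. A match describes letters in a window and not a bound site, and its part in the differences was not tested.

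Hspa1a and Hspa1b encode the stress-inducible HSP70, which is scarce in unstressed cells and made in large amounts after heat or other proteotoxic stress. Hspa1b was at 14.7, 8.82 and 6.17 CPM in WT and at 129.2, 52.6 and 63.6 CPM in knockdown cells. Hspa1a was at 4.59, 2.75 and 2.40 CPM in WT and at 32.8, 17.1 and 18.7 CPM in knockdown cells. For both genes the lowest knockdown library lay above the highest WT library, and knockdown replicate 1 stood well above the other knockdown libraries. The log2 fold change was 3.05 (SE 0.489) for Hspa1b and 2.83 (SE 0.379) for Hspa1a over 6 libraries, and 3.45 (SE 0.657) and 3.14 (SE 0.427) over 5. Ranked from the highest fold change down, Hspa1b was 21st and Hspa1a 27th of 14679 genes over 6 libraries, and they were 34th and 43rd of 15152 over 5. Without knockdown replicate 1 the 5-library values were 2.98 and 2.81.

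The coding sequences of Hspa1a and Hspa1b are 99.4% identical, with 8 mismatched bases, and 47.1% of the 100-base windows of the Hspa1a transcript occur unchanged in that of Hspa1b. Counts of these genes, and of Hspa8 and Hsp90aa1, were not whole numbers in the deposited table, while those of the other 6 genes were whole in every library. How reads were divided between the pair is therefore uncertain, and their sum is the firmer value. Summed, they were at 19.3, 11.6 and 8.57 CPM in WT and at 162.1, 69.8 and 82.3 CPM in knockdown cells. The mean of 104.7 ± 50.1 CPM (SD, n = 3) in knockdown cells was 7.96 times the WT mean of 13.2 ± 5.55 CPM (SD, n = 3), and 10.4 times that of WT replicates 2 and 3. The fitted log2 fold change of the sum was 2.997 (SE 0.463) over 6 and 3.37 (SE 0.606) over 5 libraries. Hspa1b made up 73.3% to 80.7% of the pair's TPM in the 6 libraries.

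**Figure D1:**
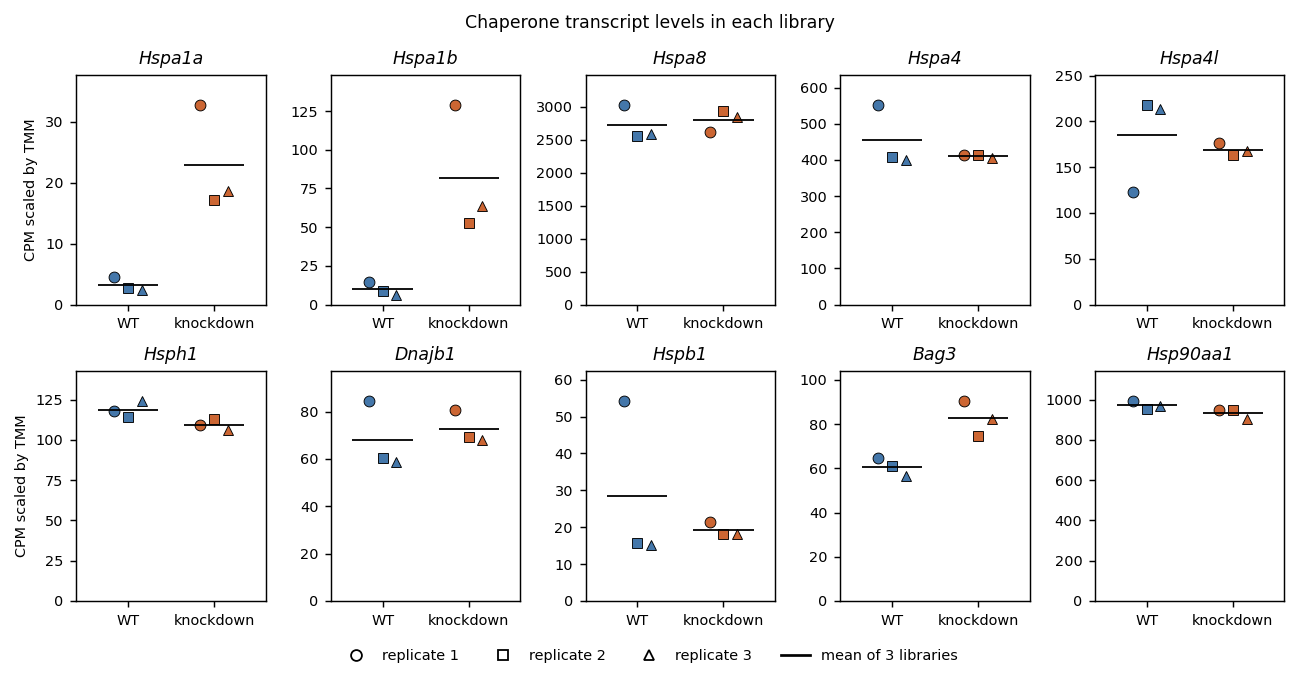
CPM scaled by TMM (vertical axes, each from 0) of the 10 chaperone genes in 3 WT and 3 knockdown libraries, with 1 symbol per replicate number and a line at the mean of the group. Hspa1a, Hspa1b and Bag3 are higher in every knockdown library than in any WT library, and WT replicate 1 is far from the other WT libraries for Hspb1, Hspa4l, Hspa4 and Dnajb1. It is also above them for Hspa1b and Hspa1a, by 0.91 and 0.65 in log2(CPM + 1) over their mean. In TPM, which is not drawn here, WT replicate 1 lies between the other WT libraries for both genes.

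Hspa8 encodes HSC70, the constitutive HSP70 that folds new proteins, strips clathrin coats and carries substrates to lysosomes. It was at 3037, 2559 and 2584 CPM in WT and at 2613, 2944 and 2841 CPM in knockdown cells, with WT replicate 1 above every other library. Its log2 fold change was 0.04 (SE 0.170) over 6 and 0.11 (SE 0.0556) over 5 libraries, where all 3 knockdown libraries lay above WT replicates 2 and 3 by a small margin. Knockdown replicate 1, the highest library for the inducible pair, was the lowest of its group for Hspa8. With the deposited TPM values WT replicate 1 was instead the lowest library, at 1266 TPM against 1843 to 2240 TPM in the others, so its place depends on the unit.

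Hspa8 was the main source of HSP70 transcripts in both groups. On the TPM scale, which allows levels of different genes to be compared, Hspa1a plus Hspa1b were at 5.74, 6.43 and 4.75 TPM in WT and at 89.4, 39.6 and 46.4 TPM in knockdown cells. They took 0.452%, 0.348% and 0.252% of the summed TPM of Hspa1a, Hspa1b and Hspa8 in WT and 4.57%, 1.74% and 2.19% in knockdown cells. The inducible share did not overlap between the groups, and it stayed below 5% of these HSP70 transcripts in each library. In knockdown replicates 2 and 3 the gain of Hspa8 over the mean of WT replicates 2 and 3 was larger in TPM than that of the inducible pair, while in knockdown replicate 1 Hspa8 was at 1869 TPM against a mean of 1859.8 TPM.

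**Figure D2:**
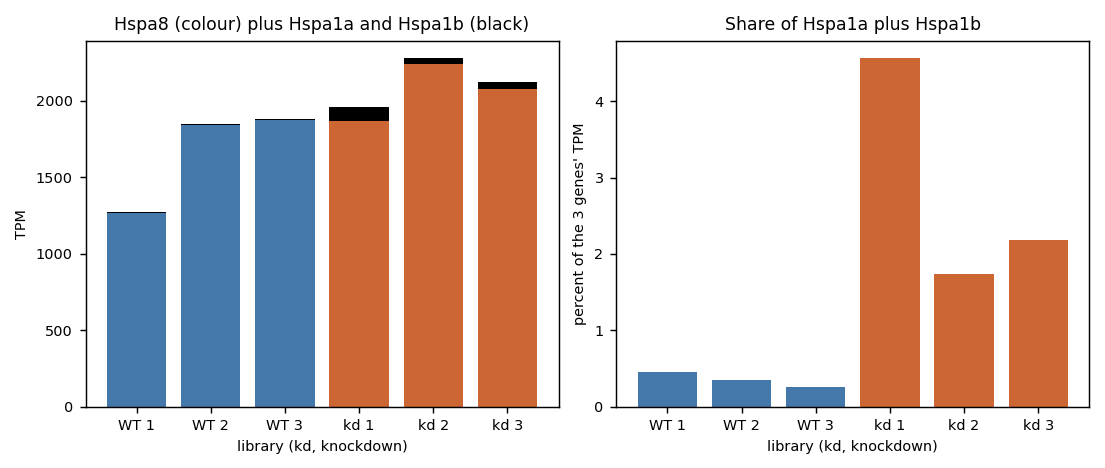
Left, TPM of Hspa8 (coloured bars) with Hspa1a plus Hspa1b stacked on top (black) in each library. Right, Hspa1a plus Hspa1b as a percentage of the TPM of the 3 genes, which is at most 0.452% in WT and between 1.74% and 4.57% in knockdown libraries.

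The genes that serve HSP70 differed less. Bag3, a nucleotide exchange factor that links HSP70 to small heat shock proteins and to selective autophagy, was at 64.7, 61.0 and 56.7 CPM in WT and at 90.5, 74.7 and 82.6 CPM in knockdown cells. Its groups did not overlap in the 6 libraries, and its log2 fold change was 0.44 (SE 0.137) over 6 and 0.47 (SE 0.0772) over 5 libraries. Dnajb1, the HSP40 that loads substrates onto HSP70 and works with HSP110 on aggregates, was at 84.5, 60.3 and 58.6 CPM in WT and at 80.5, 69.4 and 68.1 CPM in knockdown cells. In CPM WT replicate 1 was the highest library for Dnajb1, and without it every knockdown library lay above WT. The log2 fold change of Dnajb1 was 0.27 (SE 0.0706) over 5 and 0.10 (SE 0.188) over 6 libraries. In TPM WT replicate 1 was instead its lowest library, at 23.7 TPM against 31.6 and 30.7 TPM in the other WT libraries. All knockdown libraries lay above WT in that unit, at 41.8, 37.2 and 36.2 TPM. Like the inducible pair, both genes were highest in knockdown replicate 1 within the knockdown group, by 0.20 and 0.23 on the log2(CPM + 1) scale over the mean of replicates 2 and 3, against 1.09 for the pair.

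The HSP110 genes, whose proteins exchange nucleotide on HSP70 and are distant relatives of it, were not higher as a group. Hspa4, the constitutive member, was at 553.1, 408.8 and 399.6 CPM in WT and at 413.2, 413.8 and 406.3 CPM in knockdown cells, and its log2 fold change was -0.14 (SE 0.179) over 6 and 0.01 (SE 0.0416) over 5 libraries, with WT replicate 1 the highest library. Hsph1, which is heat-inducible, was at 117.8, 114.2 and 124.2 CPM in WT and at 109.5, 112.9 and 106.1 CPM in knockdown cells. In CPM it was slightly lower in each knockdown library, with log2 fold changes of -0.12 (SE 0.120) over 6 and -0.14 (SE 0.0540) over 5 libraries. The groups overlapped in TPM, where WT was at 52.2, 66.1 and 68.8 TPM and knockdown at 54.3, 66.6 and 58.9 TPM. The inducible HSP110 gene thus had the opposite sign to the inducible HSP70 genes in both fits. However, edgeR called Hsph1 in neither (adjusted p = 0.631 over 6 and 0.0713 over 5 libraries).

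Hspa4l, a relative of Hspa4 known for its role in the testis, was at 122.8, 218.4 and 213.8 CPM in WT and at 176.2, 163.3 and 167.2 CPM in knockdown cells. The knockdown libraries lay below WT replicates 2 and 3 and above WT replicate 1, and the log2 fold change was -0.37 (SE 0.0464) over 5 and -0.13 (SE 0.242) over 6 libraries. The coding sequences of Hspa4 and Hspa4l are 68.4% identical, and no 100-base window of either transcript occurs in that of another gene of the HSP110 group.

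Hspb1 encodes HSP27, a small heat shock protein that holds unfolding proteins in oligomers without using ATP. It was at 54.2, 15.8 and 15.1 CPM in WT and at 21.3, 18.1 and 18.2 CPM in knockdown cells. WT replicate 1 was far above every other library, and the sign of the difference turned with it, from -0.56 (SE 0.525) over 6 to 0.30 (SE 0.102) over 5 libraries. The latter value became -0.12 once the trend of each library with GC content was removed. Hsp90aa1, the inducible cytosolic HSP90, was at 993.5, 951.1 and 969.5 CPM in WT and at 947.6, 946.3 and 902.1 CPM in knockdown cells, a log2 fold change of -0.06 in both fits (SE 0.141 over 6 and 0.0414 over 5 libraries). Its groups just failed to overlap in CPM and overlapped in TPM, where WT was at 284.0, 456.2 and 481.1 TPM and knockdown at 465.9, 469.5 and 482.5 TPM.

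**Figure D3:**
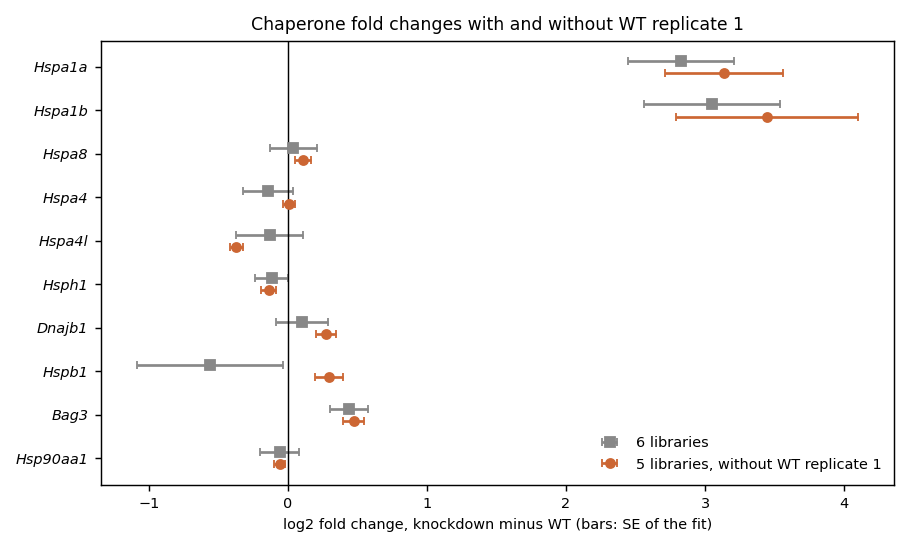
Log2 fold change of knockdown over WT (horizontal axis) for the 10 genes with the SE of the edgeR fit as bars, over 6 libraries (grey squares) and over 5 without WT replicate 1 (orange circles). Hspa1a and Hspa1b lie between 2.83 and 3.45 in both fits, Hspb1 changes sign, and the other genes lie between -0.37 and 0.47.

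All 10 genes passed the filter on low counts in both fits. In the edgeR quasi-likelihood test with Benjamini-Hochberg adjustment, 0 of 10 were called (adjusted p below 0.05) over 6 libraries, where 0% of 14679 genes were called higher, lower or in either direction. There 2351 genes had an unadjusted p below 0.05. The targeted gene Acsl5, with the smallest p of all, was not called there either (log2 fold change -2.43, adjusted p = 0.0619 in edgeR). Over 5 libraries 5 of 10 were called higher (Hspa1a, Hspa1b, Bag3, Dnajb1 and Hspb1), against 16.3% of 15152 genes, and 1 of 10 was called lower (Hspa4l), against 18% of genes, while 34.3% of genes were called in either direction. DESeq2 over 6 libraries called Hspa1a, Hspa1b and Bag3 higher and 0 lower, where it called 3.9% of 14660 genes higher, 3.79% lower and 7.69% in either direction. Bag3 was not called by DESeq2 with no filter on low counts, an alternative chosen after seeing the data, which called 724 genes in place of 1127. The CPM of the groups did not overlap for 5 of 10 genes over 6 libraries, as for 34.3% of all genes tested, and for 9 of 10 over 5 libraries, as for 59.8% of all genes tested. The comparison that these counts come from was known when the genes were chosen, so nothing is read from them. The median log2 fold change of the 10 genes was -0.01 over 6 and 0.19 over 5 libraries, and that of all genes tested was -0.02 and -0.01.

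The order of levels within the group was stable at its top. In TPM, Hspa8 (1266 to 2240), Hsp90aa1 (284.0 to 482.5) and Hspa4 (139.5 to 170.0) ranked at the top in this order in each library, and Hspa1a was the lowest in each. Hspa8 alone made up 66.5% to 71.2% of the summed TPM of the 10 genes. In WT replicates 2 and 3 Hsph1 (66.1 and 68.8) and Hspa4l (62.9 and 53.2) followed without overlap, then Bag3, Hspb1 and Dnajb1 at 30.7 to 38 TPM, of which Bag3 and Hspb1 overlapped. Hspa1b stood at 3.48 to 4.97 TPM there and at 30.3 to 72.2 TPM in knockdown cells. In the knockdown libraries the range of Hspa1b overlapped those of Hsph1 (54.3 to 66.6), Bag3 (47.6 to 56.0), Hspa4l (38.4 to 48.4), Hspb1 (39.9 to 49.99) and Dnajb1 (36.2 to 41.8).

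Gene length moved with the departure of WT replicate 1. Hspb1, the shortest of the 10 at 903 bases, was higher in this library than the mean of WT replicates 2 and 3 by 1.75 on the log2(CPM + 1) scale, and Hspa4l, the longest at 9479 bases, was at -0.81. The other 8 genes, of 2394 to 4618 bases, lay between -0.02 and 0.91. Across the 10 genes Spearman's rho between length and this difference was -0.61, as a description of genes that share the same libraries. GC content of the longest transcript moved with the 5-library fold changes, with a rho of 0.83 across the 10 genes. Hspa1a (59.0% GC), Hspa1b (58.1%) and Hspb1 (61.7%) were the richest in GC and Hspa4l (39.5%) the poorest. With the GC trend removed, the 5-library log2 fold change was 3.23 for Hspa1b, 2.88 for Hspa1a, 0.35 for Bag3 and -0.23 for Hspa4l. The part of length or GC content in the values of any single gene was not tested.

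**Figure D4:**
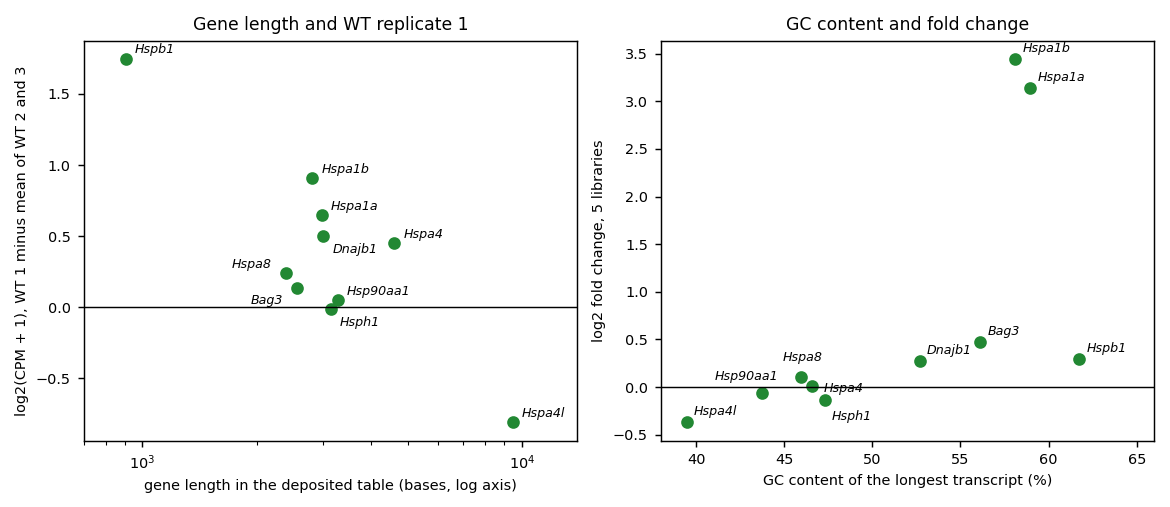
Left, gene length on a log axis against the log2(CPM + 1) difference between WT replicate 1 and the mean of WT replicates 2 and 3. Right, GC content of the longest annotated transcript against the 5-library log2 fold change; each point is 1 of the 10 genes, with Hspb1 and Hspa4l at the ends of the length axis.

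Of 7 genes for heat shock factors and their regulators, 3 rose and 0 fell over 5 libraries, where 16.3% of all genes tested were called higher and 18% lower. Hsf1, the main activator of the heat response, was at 63.6, 60.5 and 55.1 CPM in WT and at 63.0, 67.2 and 66.1 CPM in knockdown cells (log2 fold change 0.16, SE 0.0636, adjusted p = 0.0688 in edgeR over 5 libraries). Hsf2, which can pair with HSF1, was at 0.03 (adjusted p = 0.835 in edgeR) and Hsbp1, which binds HSF trimers, at -0.07 (adjusted p = 0.707 in edgeR). Fbxw7 was at 0.10 (adjusted p = 0.340 in edgeR). Hsbp1 was at 161.7 CPM in WT replicate 1 against 63.6 and 65.3 CPM in the other WT libraries, and at -0.64 over 6 libraries. Those that rose were Hsf4, best known from the lens, at 0.86 but below 6 CPM (adjusted p = 0.00246 in edgeR), the deacetylase gene Sirt1 at 0.44 (adjusted p = 0.00696 in edgeR) and Hikeshi, the carrier that brings HSP70 into the nucleus after heat, at 0.39 (adjusted p = 0.0178 in edgeR). The Hsf4 call was lost with the GC trend removed. Hikeshi had a value of -0.23 over 6 libraries and 0.07 with log2(TPM + 1).

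Other genes that textbooks list as induced by HSF1 had 9 of 17 tested members higher and 0 lower over 5 libraries, beside 16.3% and 18% of all genes tested. The list was written with earlier results of these data known. Its median log2 fold change was 0.13 over 5 libraries, beside -0.01 for all genes, and 0.02 over 6, beside -0.02. The immediate early gene Ier5, whose product enhances HSF1 activity, rose by 0.94 (SE 0.0898, adjusted p = 4.35e-05 in edgeR), from 21.5 and 21.0 CPM in WT replicates 2 and 3 to 45.7, 37.3 and 40.8 CPM. Zfand2a, a proteasome-associated stress gene, rose by 0.62 (adjusted p = 8.53e-05 in edgeR), the collagen chaperone gene Serpinh1 by 0.59 (adjusted p = 1.96e-05 in edgeR) and the autophagy receptor gene Sqstm1 by 0.50 (adjusted p = 6.11e-04 in edgeR). All 4 had a positive value over 6 libraries too (0.33 to 0.81), where edgeR called none and DESeq2 called Zfand2a and Serpinh1. Of the other genes called over 5 libraries, Ubb was at -0.13, Hmox1 at 0.06 and Hspd1 at 0.09 over 6. Dedd2 was at 0.73 there, and Cryab, of low level, at 0.94. Other members of this list that HSF1 is known to drive were not called, with Dnaja1 at -0.05, Stip1 at 0.07 and Chordc1 at -0.16 (chosen after their values were seen), and Dnaja1 was at -0.33 over 6 libraries. The small heat shock protein gene Hspb8 was at or near 0 in all libraries and was not tested.

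Among the other cytosolic HSP70, HSP110 and HSP90 genes, 0 of 5 tested were called over 5 libraries, where 34.3% of all genes were called. Hsp90ab1, the constitutive HSP90, was at 3499 and 3530 CPM in WT replicates 2 and 3 and at 3392 to 3517 CPM in knockdown cells (-0.04, adjusted p = 0.476 in edgeR; chosen after its values were seen), with 4512 CPM in WT replicate 1 and a value of -0.15 over 6 libraries. Hspa1l, the testis HSP70 that neighbours Hspa1a, reached at most 3.82 CPM (0.52, adjusted p = 0.116 in edgeR; 0.84 over 6 libraries; chosen after its values were seen). Of 8 tested genes around the inducible pair on chromosome 17, 1 was called, beside 34.3% of all genes tested. This was the histone methyltransferase gene Ehmt2, which rose by 0.52 (adjusted p = 2.82e-05 in edgeR) and by 0.17 with the GC trend removed (adjusted p = 0.0187 in edgeR). The other 7 lay between -0.33 and 0.52.

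Of 19 tested J-domain genes 2 rose and 4 fell over 5 libraries (median -0.13), shares near the 16.3% and 18% of all genes tested, with Dnajb14 at -0.56 (adjusted p = 1.34e-04 in edgeR), the synaptic vesicle cochaperone gene Dnajc5 at -0.49 and the endosomal Dnajc13 at -0.39, against Dnajc9, a histone cochaperone, at 0.24. Dnajb12 rose by 0.18 and lost the call with the GC trend removed (0.11, adjusted p = 0.195 in edgeR). Of 13 exchange factors and HSP70 cofactors 4 rose and 3 fell (median 0.07), beside the same shares of all genes. Hspbp1, an HSP70 exchange factor, rose by 1.08 (SE 0.0973, adjusted p = 3.13e-05 in edgeR), from 14.9 and 15.6 CPM in WT replicates 2 and 3 to 34.3, 29.2 and 34.7 CPM, and was the largest change of this list, at 0.84 over 6 libraries with 24.4 CPM in WT replicate 1. Bag6 rose by 0.40 and lost the call with the GC trend removed (0.09, adjusted p = 0.291 in edgeR), while the ubiquitin ligase gene Stub1 was at -0.33 (adjusted p = 0.00177 in edgeR; -0.69 with the GC trend removed), Sil1 of the endoplasmic reticulum at -0.38 and Bag1 at -0.18.

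Of 21 HSP90 cochaperone genes 7 rose and 3 fell (median 0.13), beside 16.3% and 18% of all genes tested. Fkbp5, an HSP90-bound immunophilin that glucocorticoids induce, fell by 0.85 (SE 0.0480, adjusted p = 2.32e-06 in edgeR), from 150.4 and 155.5 CPM in WT replicates 2 and 3 to 84.5, 87.4 and 85.0 CPM. WT replicate 1 stood at 130.8 CPM, also above the knockdown libraries. Nudc rose by 0.61, the myosin chaperone gene Unc45a by 0.51 and the ATPase gene Ruvbl1 by 0.46 (adjusted p = 1.49e-04 to 2.23e-04 in edgeR). Over 6 libraries Nudc was at 0.01 and Ruvbl1 at 0.11, and with the GC trend removed Unc45a was at 0.28. Cdc37l1 fell by 0.24 (adjusted p = 0.0168 in edgeR) and was not called with the GC trend removed (-0.10). Of the 3 tested small heat shock protein genes, Hspb6 rose by 0.32 and Cryab by 1.20 at no more than 1.25 CPM (not called with the GC trend removed, adjusted p = 0.0529 in edgeR), and Hspb11, which encodes a subunit of the intraflagellar transport complex, fell by 1.22 (adjusted p = 0.00380 in edgeR).

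Of 15 TRiC and prefoldin subunits, which fold actin and tubulin, 3 rose and 0 fell over 5 libraries, beside 16.3% and 18% of all genes tested. Those that rose were Cct3 at 0.23, Cct6a at 0.15 and the cofactor gene Pdcl3 at 0.25. Over 6 libraries, in contrast, all 15 had a negative value (median -0.32, none called by edgeR). Of 16 mitochondrial chaperones and proteases 6 rose and 3 fell over 5 libraries (median 0.10), beside the same shares of all genes. The mitochondrial HSP70 gene Hspa9 was at 0.25 (adjusted p = 0.00254 in edgeR) and Dnajc19 at 0.64, against Htra2 at -0.29 (-0.61 with the GC trend removed). Dnajc19 was not called with log2(TPM + 1), where it was at 0.35. Clpp was at 0.56 (adjusted p = 0.0114 in edgeR). Yme1l1 was at -0.19 and was not called with the GC trend removed (-0.03). In the endoplasmic reticulum 5 of 20 rose and 4 fell (median 0.04), shares near the 16.3% and 18% of all genes tested. There Dnajc10 fell by 0.66 (adjusted p = 5.28e-06 in edgeR) and the calcium-binding chaperone gene Calr by 0.60 (adjusted p = 7.76e-06 in edgeR), while Pdia4 rose by 0.28 and Hspa5, the HSP70 of this compartment, by 0.19 (adjusted p = 0.00389 in edgeR). The Hspa5 call was lost with log2(TPM + 1), where it was at 0.09, and without WT replicate 2 or WT replicate 3. Some values turned sign over 6 libraries, where edgeR called none of the named genes, with Hspa5 at -0.13, Dnajc19 at -0.20 and Dnajc9 at -0.16. Others were larger there, with Stub1 at -1.02, Bag1 at -0.84, Htra2 at -0.80, Calr at -0.90 and Hspb11 at -1.90, and Dnajc13 was at -0.03. DESeq2 over 6 libraries called Calr, Dnajc10, Hspb11, Fkbp5, Hspbp1, Dnajb14, Pdia4, Ehmt2 and Sirt1 in the direction seen over 5. Over all these lists, counting each gene once, 39 of 133 tested genes rose and 18 fell over 5 libraries, beside 16.3% and 18% of all genes tested. Their median log2 fold change was 0.09 over 5 libraries, beside -0.01 for all genes tested. Over 6 libraries it was -0.12, beside -0.02, so the direction of this lean depends on WT replicate 1.

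**Figure D5:**
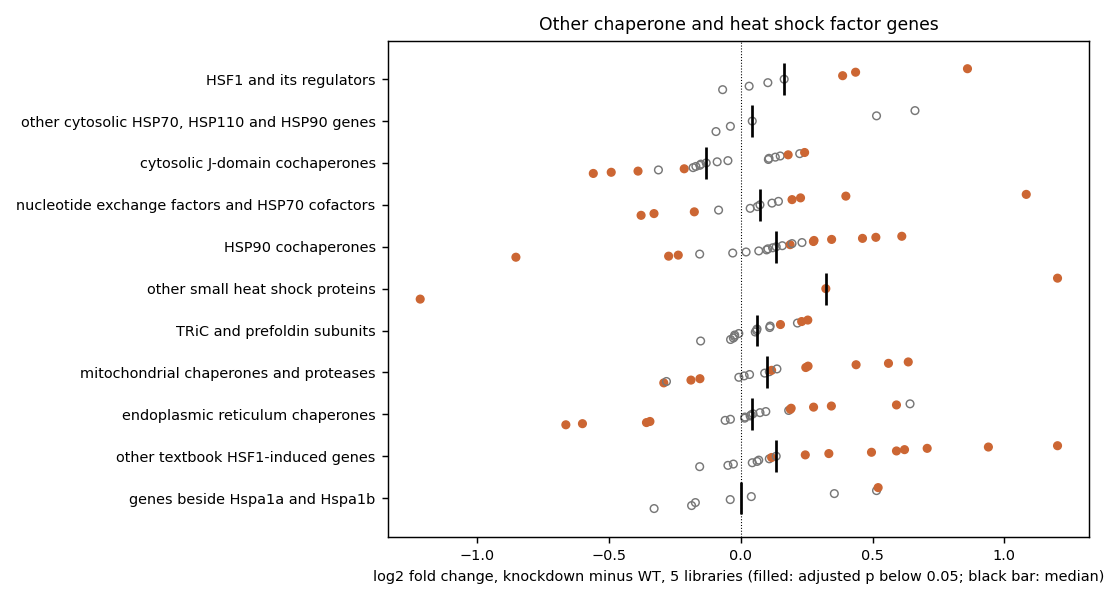
Log2 fold change over 5 libraries (horizontal axis) of each tested gene in 11 lists of chaperones, cochaperones and heat shock factors, with filled points at an adjusted p below 0.05 in edgeR and a black bar at the median of the list. Points lie on both sides of 0 in the lists of J-domain, HSP90 and endoplasmic reticulum genes, while the textbook HSF1-induced genes have 9 filled points above 0 and none below.

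Genes with a profile like that of Hspa1a plus Hspa1b were ranked by the Pearson correlation of log2(CPM + 1) over the 5 libraries. The 10026 genes ranked had a mean of at least 5 CPM there and a symbol that is not a predicted name. After Hspa1b, which is part of the sum, Phrf1, Osr1, Gdf15, Mycn and Zfp553 came first, each with r of at least 0.999. A value of at least 0.99 was reached by 212 genes, and the 5 points share their libraries and fall into a WT and a knockdown group. Of the 5 genes Gdf15, a stress-induced cytokine, had a difference of similar size, at 4.64, 5.81 and 3.77 CPM in WT and 61.8, 28.8 and 33.9 CPM in knockdown cells. Mycn was at 6.61, 5.28 and 4.74 CPM in WT and at 12.5, 9.85 and 10.1 CPM in knockdown cells. The ranking is a description of 5 libraries.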

How the data were processed

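KPC1199 RNA was compared between 3 WT and 3 ACSL5 knockdown libraries. Of tools, the submitters' processing notes list HISAT2, fastp, DESeq2 and StringTie, with neither version nor role, and human builds, whereas the gene identifiers are mouse. The authors deposited expected counts per gene and, in a second table, TPM; columns of group means were not used. The sources used here state neither strandedness nor the counting program.

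Expected counts were rounded, filtered with filterByExpr, scaled by TMM and tested with edgeR 4.0.16 (quasi-likelihood F test, robust, two-sided) in R 4.3.3, with Benjamini-Hochberg adjustment over all genes tested and a threshold of 0.05. The code was checked on simulated counts. The fit without WT replicate 1, the 10 genes and the lists were chosen with earlier results of these data known. Named genes were all 10, the HSF1 list and, per list, up to 4 called genes with the smallest p plus the strongest called against them.

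Alternatives were DESeq2 1.42.0, limma 3.58.1 (voom, and trend on log2(TPM + 1) or log2(TPM + 0.1)), other scalings and filters, removal of length or GC trends (lowess, span 0.3; GENCODE M21), a replicate block and leaving out each library. Deviations of same-numbered libraries from their group means had correlations of -0.14, 0.05 and -0.22. These values depend on each other, because deviations within a group cancel out. They cannot show whether the numbers pair the libraries. Promoters are from RefSeq, GRCm38.p6.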

Additional observations from a re-analysis of the deposited data

How the results depend on the processing

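Hspa1a, Hspa1b and Bag3 kept their positive sign in all settings run on both sets of libraries, and Hsph1 its negative sign. Over 6 libraries, the 0 genes called became 1 with library totals, 4 with no filter, 1127 in DESeq2 (724 with no filter), 9 in limma-voom, 5 without robust estimation, 930 with the length trend removed and 615 with the length and GC trends removed (the last, and DESeq2 with no filter, chosen after the data were examined), and 0 to 5193 on leaving out single libraries. The 0 chaperone genes called became 3 in DESeq2 and with the length trend removed, 2 with both trends removed and in DESeq2 with no filter, and 0 to 6 on leaving out single libraries, the highest count in each case without WT replicate 1. Over 5 libraries, the 5193 genes called became 2464 on log2(TPM + 1), 2544 on log2(TPM + 0.1), 1266 on log2(TPM + 1) with no filter and 3217 at a threshold of 0.01, and 2599 to 6188 on leaving out single libraries. The 6 chaperone genes called became 3 in each of these TPM settings and at 0.01, and 2 to 6 on leaving out single libraries, with 2 without WT replicate 2 and 2 without WT replicate 3, fits that give the remaining WT library the spread of the knockdown group. The split of 2471 higher and 2722 lower became 2864 and 2356 with library totals. Hspb1 reversed to -0.12 with the GC trend removed and -0.13 with both trends removed. Over 5 libraries Hspb1 was called in only 6 of 22 alternative settings, some of which leave 1 WT library. Its call was also lost with the replicate block (adjusted p = 0.0848 in edgeR, log2 fold change 0.22), which gave 0 calls over 6 libraries and 5753 over 5, with 6 chaperone genes called; the labels do not say that the numbers pair the libraries. The cause of these differences was not tested. Hspa1a was below 5 CPM in WT, at 83.6, 62.0 and 74.2 expected counts, and the part of counting depth in its values was not tested.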
